A study of Mus musculus with 6 samples.

Results

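Transcripts of 36 genes of mitosis and the spindle were followed in mouse bone marrow stem and progenitor cells with and without Spred1. The genes were given as a list of names, and every non-control probe carrying one of these names was read, which gave 54 of the 55681 probes and 36 of the 34650 gene names on the array. A gene was tested where all 3 WT or all 3 KO arrays read it as well above background, which 32 of the 36 met, out of 19609 genes tested in all. The remaining members, Aurkb, Cenpf, Ncapg and Ttk, are described apart.

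The study measured total RNA on 6 one-colour Cy3 arrays, 3 from wild-type (WT) and 3 from Spred1 knockout (KO) mice, to ask how loss of Spred1, an inhibitor of Ras-ERK signalling, changes these cells. Both genotypes were of strain C57BL/6, untreated as far as the labels say, and the labels give no age or allele. All samples were bone marrow cells sorted as CD48-/c-Kit+/Sca-1+/Lineage marker- (CD48-KSL), which holds haematopoietic stem cells with the earliest progenitors. Samples carry the numbers 1 to 3 in each genotype. No label states that they were separate animals, so the p-values cover only how far these samples scatter, and part of that may be technical.

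Mitosis is carried out by a set of proteins that most cells make only from late G2 to the end of division. Cyclin-dependent kinase 1 with its B-type cyclins starts it, Aurora and Polo kinases and kinesin motors build the spindle, and kinetochores tie chromosomes to it. A checkpoint then holds back the anaphase-promoting complex until every chromosome is attached. Because the transcripts are largely limited to dividing cells, their level in bulk RNA is widely used as a sign of how many cells of a sample are in cycle. Long-term haematopoietic stem cells are mostly quiescent, whereas the multipotent progenitors that share the gate divide more often. Fewer cycling cells and less of these transcripts per cell cannot be told apart in these samples.

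Many mitotic genes share promoter elements: the cell cycle genes homology region (CHR), bound by complexes built on the MuvB core together with B-Myb or FOXM1, and CCAAT boxes, bound by NF-Y. RefSeq promoter windows (GRCm38.p6, 250 bases before to 50 after the start) were found for 31 of the 36 members, as 32 windows. The letters searched were TTTGAA or TTCGAA for the CHR and CCAAT for the box, each on both strands. A CHR match was present in 25 of the 32 windows (78.1%), against 19.2% of all 32851 windows. CCAAT was present in 78.1% of the members' windows against 37.4% of all windows, and both motifs in 71.9% against 7.52%. By gene, 24 of the 31 members held a CHR match and 22 held both, while Birc5, Mad2l1, Melk, Ncaph and Nuf2 held neither. The 100 bases before the start are printed below for the 7 tested members with both motifs in that stretch. These 7 were chosen for holding both motifs, so their pairing there is not a result about the members. Capitals mark CHR matches (TTTGAA, or TTCAAA when read on the other strand) and CCAAT boxes (CCAAT, or ATTGG on the other strand), and each line gives GRCm38.p6 coordinates and the strand of the gene.
Cdc20 chr4:118437344-118437443 (minus strand): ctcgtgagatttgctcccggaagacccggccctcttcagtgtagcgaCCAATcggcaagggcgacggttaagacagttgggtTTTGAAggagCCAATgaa
Cdk1 chr10:69352913-69353012 (minus strand): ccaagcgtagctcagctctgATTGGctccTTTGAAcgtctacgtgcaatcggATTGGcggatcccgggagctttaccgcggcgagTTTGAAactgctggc
Espl1 chr15:102296193-102296292 (plus strand): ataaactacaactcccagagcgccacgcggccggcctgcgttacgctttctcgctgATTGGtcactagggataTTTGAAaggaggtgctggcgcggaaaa
Kif11 chr19:37376282-37376381 (plus strand): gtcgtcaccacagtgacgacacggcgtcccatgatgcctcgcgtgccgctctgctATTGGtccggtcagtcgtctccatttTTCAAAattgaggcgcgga
Prc1 chr7:80294376-80294475 (plus strand): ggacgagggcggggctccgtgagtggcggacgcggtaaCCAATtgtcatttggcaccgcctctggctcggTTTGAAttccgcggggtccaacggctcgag
Top2a chr11:99024190-99024289 (minus strand): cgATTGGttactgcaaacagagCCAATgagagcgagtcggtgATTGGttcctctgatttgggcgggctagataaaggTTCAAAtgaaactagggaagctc
Ube2c chr2:164769829-164769928 (plus strand): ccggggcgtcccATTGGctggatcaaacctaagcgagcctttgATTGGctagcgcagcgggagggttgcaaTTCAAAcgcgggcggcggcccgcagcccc

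In these stretches a CHR match began 15 bases before the start of Cdk1, 18 before Cdc20, 19 before Kif11, 23 before Top2a, 27 before Espl1, 29 before Ube2c and 30 before Prc1. The closest CCAAT box began between 9 bases (Cdk1) and 35 bases (Top2a) from a CHR match. Cdk1 carried 2 CHR matches and 2 boxes, and Top2a carried 3 boxes. A match of letters is a description of the sequence and not a measured binding site.

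Each level is the log2 processed signal relative to its array's 75th percentile, where 0 stands for that percentile. A level is compared only between arrays for the same probe, since probes differ in brightness. The 75th percentile lay between 345 and 417 signal units, and 51.4% to 52.6% of probes were well above background on each array. Pearson correlations between arrays, across genes, which are not independent replicates, were 0.988 to 0.995. The 3 probes of Spred1 moved apart in KO, at 90.9%, 50.7% and 544% of the WT signal. No source used here says which part of the gene was deleted, so they do not check which label is the knockout. On the probes at 50.7% and 544% the WT and KO arrays did not overlap (limma adjusted p = 0.054 and 0.013). On the probe at 90.9% they overlapped. Slide 1 held replicates 1 and 2 of both genotypes and slide 2 held replicates 3. WT replicate 2 and KO replicate 2 were the arrays in row 2 of their slide, per the file headers, and the other 4 lay in row 1. All 10 listed stem cell genes were well above background, as were 5 of 9 genes for proteins that define the negative side of the gate (Cd48, Cd3e, Cd4, Itgam and Ly6g).

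The members' mean levels lay close together in the genotypes. None of the 32 tested members passed limma's test at an adjusted p under 0.05, where 0.0204% of all genes did (4 of 19609), and none reached an unadjusted p under 0.05 in either direction. Over all genes 5.12% were lower and 7.06% were higher in KO at that unadjusted level. Of the members, 13 were lower and 19 higher in KO, whereas 51.2% of all genes were lower. The median difference over the members was 0.033 on the log2 scale, against -0.0063 over all genes tested. Single differences ran from -0.21 (Cdk1) to 0.20 (Ndc80), and limma adjusted p-values from 0.540 to 0.995. Standard errors of these differences lay between 0.11 and 0.27. The 95% intervals of the differences reached from -0.74 (Kif2c) to 0.76 (Kif11), so that for all 32 members they lay within 1 log2 unit on either side of 0. Differences inside these intervals are not resolved with 3 arrays a genotype.

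**Figure D1:**
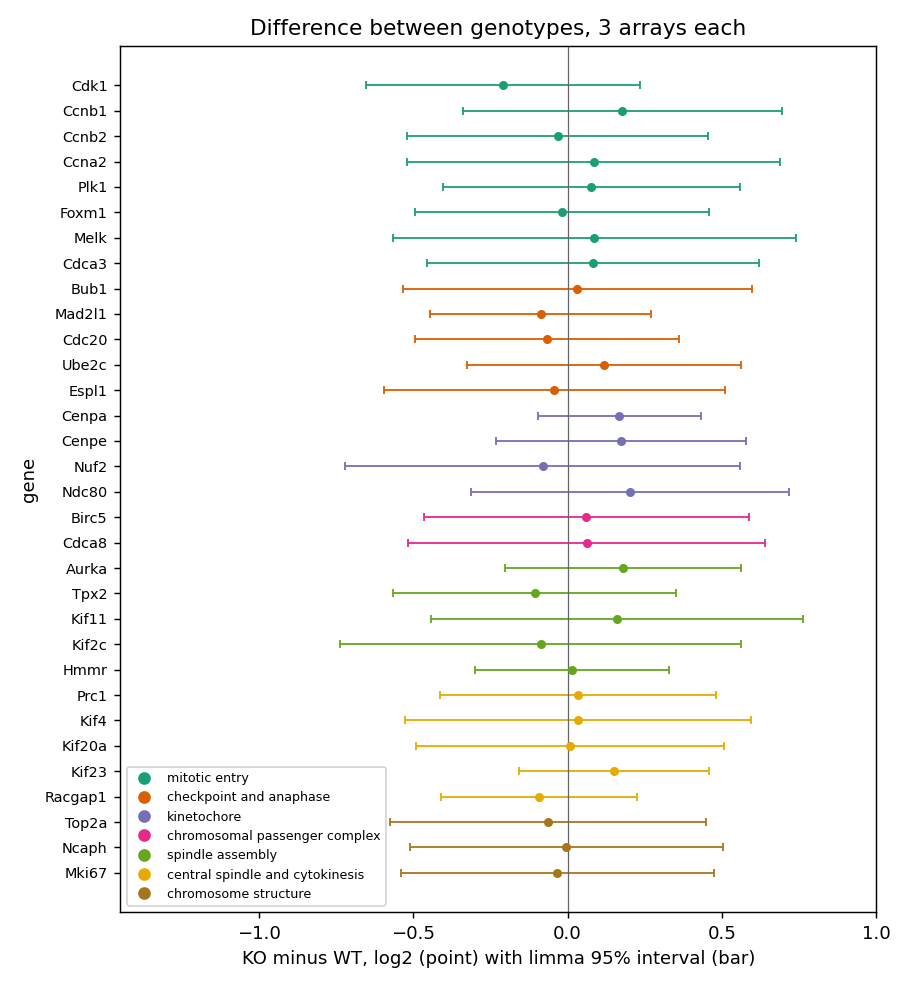
KO minus WT difference of the 32 tested members on the log2 scale (points), with limma's 95% interval (bars), coloured by role, 3 arrays per genotype. All differences lie between -0.21 and 0.20, and every interval crosses 0.

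The arrays of the genotypes overlapped for every member. In no member were all 3 KO arrays below all 3 WT arrays, which occurred in 10% of all genes, or all above them, which occurred in 9.53%. In 24 of 32 members all 3 KO arrays lay inside the range of the WT arrays, against 15.6% of all genes. WT replicate 2 was the lowest of all 6 arrays in 30 of 32 members, against 12% of all genes. In those members that array alone set the lower end of the WT range and so the overlap on that side. The direction counts also moved with the scaling. With no scaling between arrays 25 members were lower and 7 higher in KO, with a median of -0.11 where the median of all genes was -0.15. Within slide 1, with 2 arrays a genotype, 4 were lower and 28 higher with a median of 0.14. Within array row 1, also with 2 arrays a genotype, 25 of 33 were lower with a median of -0.081. The 33 include Ncapg, which passed the filter on dim probes there only through its KO arrays. Slide 2 and row 2 hold 1 array of each genotype and give no test.

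Among the 8 genes of mitotic entry, 3 were lower and 5 higher in KO, none past the test. Cdk1, the kinase that starts mitosis, had WT levels of 0.24, -0.35 and 0.23 and KO levels of 0.041, -0.26 and -0.29. All 3 KO values fell inside the WT range, which WT replicate 2 extended downwards. Its difference of -0.21 ± 0.19 (SE, n = 3 per genotype) gave a limma adjusted p of 0.640. Melk, a mitotic kinase of embryonic and stem-like cells, had the largest spread of the group. It measured -0.54, -1.30 and -0.30 in WT and -0.36, -0.91 and -0.62 in KO. Replicate 2 was the lowest array of each genotype, and the difference was 0.087 ± 0.27 SE (limma adjusted p = 0.905). The B-type cyclins that activate Cdk1 differed by 0.18 ± 0.22 SE (Ccnb1) and -0.032 ± 0.20 SE (Ccnb2). Ccna2, the cyclin of S phase and G2, differed by 0.085 ± 0.25 SE, and Plk1, the Polo kinase of mitotic entry and spindle poles, by 0.077 ± 0.20 SE. Foxm1, the transcription factor of G2 and mitosis genes, differed by -0.018 ± 0.20 SE. Cdca3, which takes part in the destruction of the Cdk1 inhibitor Wee1, differed by 0.082 ± 0.23 SE.

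Of the 5 tested genes of the spindle checkpoint and anaphase, 3 were lower and 2 higher in KO, none past the test. Ube2c, the ubiquitin-conjugating enzyme of the anaphase-promoting complex, had WT levels of 1.10, 0.50 and 1.15 and KO levels of 1.10, 0.89 and 1.11. The difference was 0.12 ± 0.19 SE (limma adjusted p = 0.793), and WT replicate 2 was again the low array. Bub1, a checkpoint kinase at kinetochores, measured -0.73, -1.42 and -0.45 in WT and -0.76, -0.88 and -0.86 in KO. Its spread was 0.50 in WT and 0.067 in KO (SD over 3 arrays), and its difference was 0.032 ± 0.24 SE (limma adjusted p = 0.961). Mad2l1, the checkpoint protein that restrains Cdc20, differed by -0.087 ± 0.15 SE. Cdc20, the activator of the anaphase-promoting complex, differed by -0.067 ± 0.18 SE, and Espl1, the separase that cuts cohesin at anaphase, by -0.043 ± 0.23 SE.

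At the kinetochore, 1 of 4 tested genes was lower and 3 were higher in KO, none past the test. Cenpa, the histone H3 variant of centromeres, had the smallest p of all members (limma adjusted p = 0.540). It measured 0.78, 0.59 and 0.72 in WT and 0.68, 0.94 and 0.97 in KO. KO replicates 2 and 3 lay above every WT array and KO replicate 1 lay among them, for a difference of 0.17 ± 0.11 SE. The exact two-sided permutation p was 0.3, where 3 against 3 arrays cannot go below 0.1. Nuf2, a subunit of the Ndc80 complex that grips microtubules, measured -1.42, -2.19 and -1.42 in WT and -1.75, -2.14 and -1.39 in KO. Replicate 2 was low in both genotypes, and the difference was -0.080 ± 0.27 SE (limma adjusted p = 0.911). Ndc80, its partner in that complex, differed by 0.20 ± 0.22 SE, and Cenpe, a kinetochore kinesin that moves chromosomes to the spindle equator, by 0.17 ± 0.17 SE.

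Both tested subunits of the chromosomal passenger complex, which corrects faulty attachments and later guides cytokinesis, had the same small difference. Birc5 (survivin) measured 3.25, 2.63 and 3.43 in WT and 3.34, 2.95 and 3.21 in KO. Cdca8 (borealin) measured 3.05, 2.27 and 3.09 in WT and 2.98, 2.59 and 3.02 in KO. In each gene replicate 2 was the lowest array of both genotypes and the KO arrays lay inside the WT range. The difference was 0.061 ± 0.22 SE for Birc5 and 0.061 ± 0.24 SE for Cdca8 (limma adjusted p = 0.918 and 0.925).

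Of the 5 genes of spindle assembly, 2 were lower and 3 higher in KO, none past the test. Aurka, the Aurora kinase of spindle poles, measured 1.78, 1.35 and 1.94 in WT and 1.97, 1.82 and 1.82 in KO. Only WT replicate 2 lay away from the other 5 arrays, and the difference was 0.18 ± 0.16 SE (limma adjusted p = 0.642). Kif2c, a kinesin that takes microtubules apart at centromeres, measured -2.83, -3.62 and -3.05 in WT and -2.92, -3.73 and -3.12 in KO. On this main probe replicate 2 was low in both genotypes to a like extent, and the difference was -0.088 ± 0.27 SE (limma adjusted p = 0.903). The second Kif2c probe, described below, had replicate 2 as its highest array in each genotype. Tpx2, the activator of Aurora A, differed by -0.11 ± 0.19 SE. Kif11, the motor that pushes the spindle poles apart, differed by 0.16 ± 0.25 SE, and Hmmr, a spindle-bound hyaluronan receptor, by 0.014 ± 0.13 SE.

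Of the 5 genes of the central spindle and cytokinesis, 1 was lower and 4 were higher in KO, none past the test. Kif23, a kinesin of the centralspindlin complex, measured 0.73, 0.67 and 0.58 in WT and 1.06, 0.74 and 0.62 in KO. It was the only tested member in which WT replicate 2 was not the lowest WT array. KO replicate 1 stood above all others, and the difference was 0.15 ± 0.13 SE (limma adjusted p = 0.629). Kif4, a chromosome-bound kinesin that shortens central spindle microtubules, measured -1.37, -2.19 and -1.29 in WT and -1.56, -1.68 and -1.51 in KO. The 3 KO values lay between WT replicates 1 and 2, with a difference of 0.034 ± 0.24 SE (limma adjusted p = 0.959). Prc1, which bundles antiparallel microtubules, differed by 0.034 ± 0.19 SE. Kif20a, a kinesin of the midzone, differed by 0.0074 ± 0.21 SE, and Racgap1, the partner of Kif23 in centralspindlin, by -0.092 ± 0.13 SE.

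All 3 tested genes of chromosome structure were slightly lower in KO, none past the test. Top2a, the topoisomerase that untangles sister chromatids, measured 1.42, 0.55 and 1.19 in WT and 0.986, 0.988 and 0.987 in KO. The KO arrays were nearly identical (SD 0.0011) while the WT arrays spanned 0.88, and the difference was -0.064 ± 0.21 SE (limma adjusted p = 0.911). Ncaph, a condensin subunit, differed by -0.0042 ± 0.21 SE. Mki67, the proliferation marker Ki-67 that coats mitotic chromosomes, differed by -0.034 ± 0.21 SE.

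The members varied widely between the WT arrays. The median SD over the members was 0.39 within WT and 0.17 within KO, against 0.13 and 0.13 over all genes tested. The SD was larger within WT in 29 of 32 members, where 52.9% of all genes had the larger SD in WT. The exceptions were Cenpa, Kif23 and Kif2c. Melk had the largest WT spread (SD 0.52) and Kif23 the smallest (SD 0.076). The largest KO spread was that of Kif2c (SD 0.42) and the smallest that of Top2a.

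**Figure D2:**
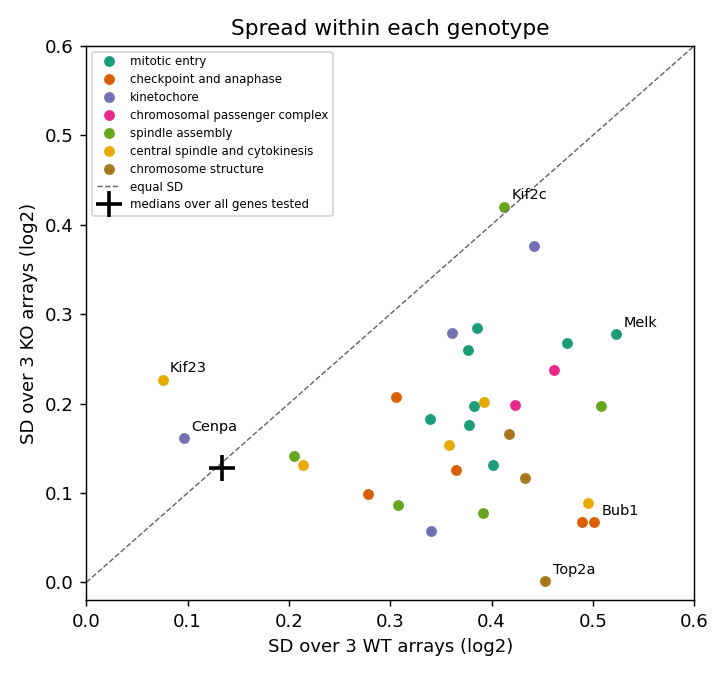
SD over the 3 WT arrays (horizontal) against SD over the 3 KO arrays (vertical) of the 32 tested members, log2 scale, coloured by role, with the dashed line at equal SD. 29 members lie below the line, and the cross marks the medians over all genes tested (0.13 in each genotype).

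A single array set most of the WT spread. WT replicate 2 was the lowest WT array in 31 of 32 members, against 34.2% of all genes, and the lowest of all 6 arrays in 30 of 32, against 12% of all genes. The second exception was Kif2c, in which KO replicate 2 was lowest. The median member on WT replicate 2 stood at 63.9% of the geometric mean of the other WT arrays (their mean on the log2 scale). This is a step of -0.65 on the log2 scale, while the median over all genes was -0.015. Melk made the deepest step at -0.88, which is 54.3% of the other WT arrays. Kif11 followed at 54.9% and Kif4 at 55.3%, and Kif23 stood at 102%. WT replicates 1 and 3 were closer to each other, with a median absolute difference of 0.16 (0.17 over all genes).

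The step was present in every role. Its median was -0.64 in mitotic entry, -0.63 in the checkpoint and anaphase group, -0.57 at the kinetochore and -0.76 in the chromosomal passenger complex. It was -0.68 in spindle assembly, -0.62 in the central spindle and cytokinesis group and -0.75 in chromosome structure. Members with a CHR match in the promoter window had a median step of -0.63 (21 tested members) and those without one of -0.72 (7 tested members). This split was not tested.

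The same tendency was smaller in KO. KO replicate 2 was the lowest KO array in 25 of 32 members, against 40.2% of all genes, and stood at a median of 85.1% of the other KO arrays, a step of -0.23. The step of KO replicate 2 ran from -0.71 in Kif2c to 0.22 in Racgap1. The median level of the 32 members was 1.10, 0.57 and 1.13 on WT replicates 1 to 3 and 1.08, 0.92 and 1.01 on KO replicates 1 to 3. The KO medians thus lay between those of WT replicate 2 and the other WT arrays. The replicate 2 arrays are the pair in row 2 of slide 1, and the part of array position in these steps was not tested.

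**Figure D3:**
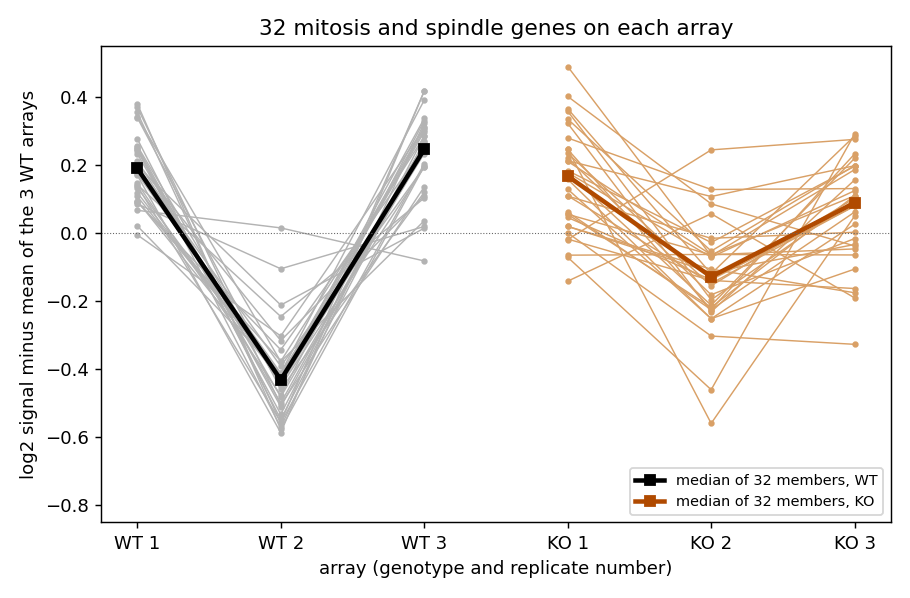
Level of each of the 32 tested members on each array minus the mean of its 3 WT arrays (log2; thin lines, grey for WT and orange for KO), with the median of the members as thick lines. On WT replicate 2 the median lies at -0.43, while WT replicates 1 and 3 lie at 0.19 and 0.25 and the KO arrays at 0.17, -0.13 and 0.089.

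The direction of the genotype difference turned on WT replicate 2. Without it, 28 of 32 members were lower in KO, with a median difference of -0.21 on the log2 scale. Cdk1 (-0.41 ± 0.13 SE), Espl1 (-0.32 ± 0.10 SE), Top2a (-0.32 ± 0.11 SE) and Tpx2 (-0.33 ± 0.10 SE) then had an unadjusted limma p under 0.05, where 6.05% of all genes were lower at that level. None passed after adjustment, the smallest limma adjusted p being 0.350. Without WT replicate 1 the median was 0.12 with 3 members lower, and without WT replicate 3 it was 0.16 with 5 lower. The median moved less without a KO array: -0.034 without replicate 1, 0.11 without replicate 2 and 0.0031 without replicate 3. The medians without KO replicates 1 and 2 are each over 33 members and not the same 32. Ttk entered the former fit and Ncapg the latter, each only through its remaining KO arrays. Without KO replicate 1, Cenpa (0.26 ± 0.10 SE, limma adjusted p = 0.595) was higher in KO at an unadjusted p under 0.05, as were 5% of all genes. Ttk also reached that level, but it entered this fit only because its 2 remaining KO arrays passed the filter on dim probes, so no value is given for it.

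**Figure D4:**
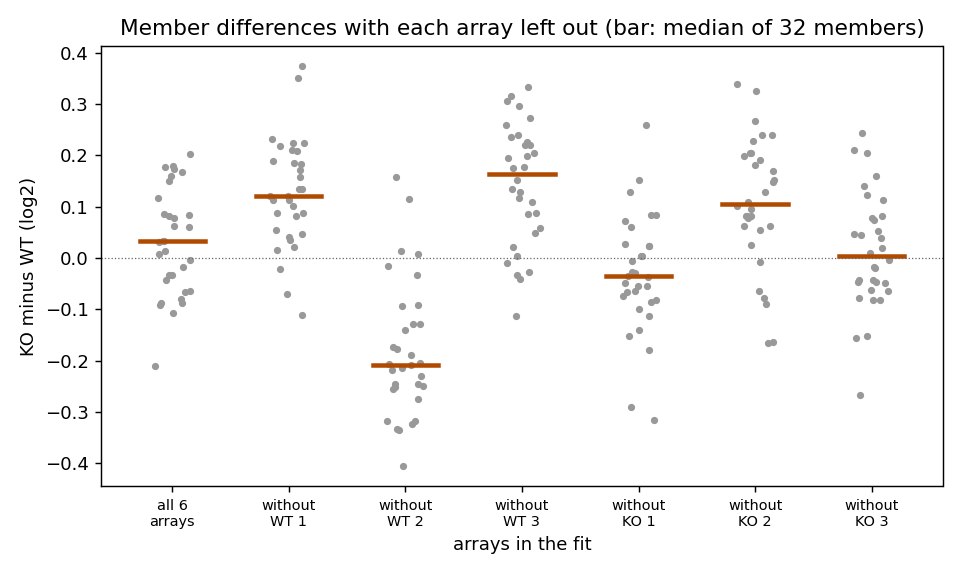
KO minus WT difference (log2) of each of the 32 members tested on all 6 arrays (grey points, spread sideways for visibility) in the fit with all arrays and in fits with 1 array left out, with the median as a bar. The median is 0.033 with all arrays and -0.21 without WT replicate 2, where 28 points lie below 0.

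Additional probes of the same gene repeated much of this pattern. Of the members, 23 had 1 probe, 8 had 2 and 5 had 3, and 46 of the 54 probes were tested. Over all probes 0.0324% passed the limma test (9 of 27806), and no member probe did. WT replicate 2 was the lowest WT array in 42 of the 46 tested probes, and in 11 of the 14 that are not the gene's main probe. These include both additional probes of Birc5, Ccnb1 and Mad2l1 and the single additional probes of Cdca8, Kif23, Mki67, Racgap1 and Ube2c. The 2 tested Mki67 probes, at chr7:142881591-142881650 and chr7:142884764-142884823 (mm9), differed by -0.034 ± 0.21 SE and 0.072 ± 0.25 SE. The Ube2c probes differed by 0.12 ± 0.19 SE and 0.029 ± 0.20 SE, and the Racgap1 probes by -0.092 ± 0.14 SE and -0.034 ± 0.14 SE. Those of Mad2l1 were all lower in KO, at -0.087, -0.35 and -0.27, with limma adjusted p from 0.483 to 0.821.

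In some members the probes went apart. Cdk1 had a second probe at chr10:68799513-68799572 (mm9) that was well above background on 1 WT and 3 KO arrays. It measured -4.24, -3.82 and -4.19 in WT and -3.33, -3.72 and -3.42 in KO. It was tested only because the KO arrays passed the filter on dim probes. Its fit, the only one among member probes with an unadjusted limma p under 0.05, therefore does not support a difference (limma adjusted p = 0.387). The main Cdk1 probe, at chr10:68801072-68801131 (mm9), differed by -0.21. The remaining Cdk1 probe reached the background call on 1 WT array and no KO array. The second Kif2c probe differed by -0.46 ± 0.33 SE and the second Tpx2 probe by 0.096 ± 0.19 SE, and in these the lowest WT arrays were replicates 3 and 1. This Kif2c probe measured -3.15, -2.42 and -3.75 in WT and -3.92, -3.35 and -3.43 in KO, so replicate 2 was highest in each genotype. The second Kif23 probe, at 0.54 ± 0.34 SE, had replicate 2 as its lowest WT array, unlike the main probe. The second Cdca8 probe differed by -0.12 ± 0.30 SE, against 0.061 for the main one. Additional probes of Foxm1 and Nuf2 were too dim to be tested.

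The members that could not be tested were near background. Aurkb, the kinase of the chromosomal passenger complex, was well above background on none of the 6 arrays. Cenpf, a kinetochore and nuclear matrix protein, reached that call on 1 KO array, and Ncapg, a condensin subunit, on 2 KO arrays. Ttk, the checkpoint kinase Mps1, reached it on 1 WT and 2 KO arrays. It measured -2.94, -4.31 and -4.07 in WT and -4.43, -1.77 and -3.10 in KO, the widest KO spread of any member probe (SD 1.33). Within array row 1, Racgap1 (-0.29 ± 0.11 SE) and Tpx2 (-0.32 ± 0.12 SE) were lower in KO at an unadjusted limma p under 0.05, with limma adjusted p of 0.351 and 0.350, where 5.74% of all genes were lower at that level. Ncapg was higher at that level, as were 8.4% of all genes, but it passed the filter on dim probes there only through its KO arrays, so no value is given for it.

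Other genes of the cell cycle showed the low WT replicate 2 to different extents. Of 99 other tested mitosis genes, 0 passed the limma test, 3 were lower and 0 higher at an unadjusted p under 0.05, and 70 were lower in KO. Over all genes 5.12% were lower and 7.06% higher at that unadjusted level, and 51.2% were lower by sign. WT replicate 2 was the lowest WT array in 86 of the 99, against 34.2% of all genes. The median step was -0.40, against -0.015 over all genes. The smallest p-values belonged to Wee1, the kinase that inhibits Cdk1 (-0.35 ± 0.11 SE, limma adjusted p = 0.376), and Mis12 of the kinetochore (-0.33 ± 0.12 SE, limma adjusted p = 0.391). The checkpoint genes Bub3 (-0.23 ± 0.09 SE) and Bub1b (-0.39 ± 0.17 SE) followed. All KO arrays lay below all WT arrays in 5 of the 99, among them Wee1, Mis12 and Bub3, against 10% of all genes. Without WT replicate 2, 94 of 100 were lower in KO, and the count was 93 of 99 with no scaling and 63 of 99 with quantile normalization.

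Of 38 tested genes of S phase and DNA replication, 35 were lower in KO by sign, with a median of -0.13, and 0 passed the limma test. Over all genes 51.2% were lower, with a median of -0.0063. The count of the 38 lower in KO was 36 without WT replicate 2 and 32 to 37 under the other scalings. At an unadjusted p under 0.05, 2 of the 38 were lower and 1 was higher, against 5.12% and 7.06% of all genes. Rfc3, a subunit of the clamp loader, differed by -0.37 ± 0.13 SE, and Tyms, thymidylate synthase, by -0.41 ± 0.16 SE. Pole, the catalytic subunit of DNA polymerase epsilon, differed by 0.27 ± 0.10 SE, and Rfc4, another clamp loader subunit, by -0.17 ± 0.10 SE. WT replicate 2 was the lowest WT array in 37 of the 38, against 34.2% of all genes, with a median step of -0.40.

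Regulators of mitotic gene transcription (21 tested) had a median difference of -0.15, with 17 lower in KO and 0 at an unadjusted p under 0.05. Over all genes 51.2% were lower by sign, and 5.12% were lower and 7.06% higher at that unadjusted level. E2f2 and E2f3, activating E2F factors, differed by -0.24 ± 0.10 SE and -0.19 ± 0.10 SE, Tfdp1, their dimer partner, by -0.30 ± 0.16 SE, and Rbbp4 of the MuvB core by -0.18 ± 0.09 SE. Of 13 tested G1 cyclins, kinases and CDK inhibitors, 9 were lower in KO, against 51.2% of all genes. At an unadjusted p under 0.05, where 5.12% of all genes were lower, 1 of the 13 was lower. This was Cdk6, a partner of D-type cyclins, at -1.08, -1.24 and -1.21 in WT and -1.68, -1.69 and -1.46 in KO. The groups did not overlap, as in 10% of all genes, and the difference of -0.43 ± 0.10 SE had a limma adjusted p of 0.359. Ccnd2 differed by -0.19 ± 0.09 SE, Cdk2 by -0.34 ± 0.17 SE and Ccnd1 by 0.28 ± 0.19 SE. WT replicate 2 was the lowest WT array in 14 of the 21 regulators and in 8 of the 13 G1 genes, with median steps of -0.17 and -0.14. Over all genes the share was 34.2% and the median step -0.015.

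**Figure D5:**
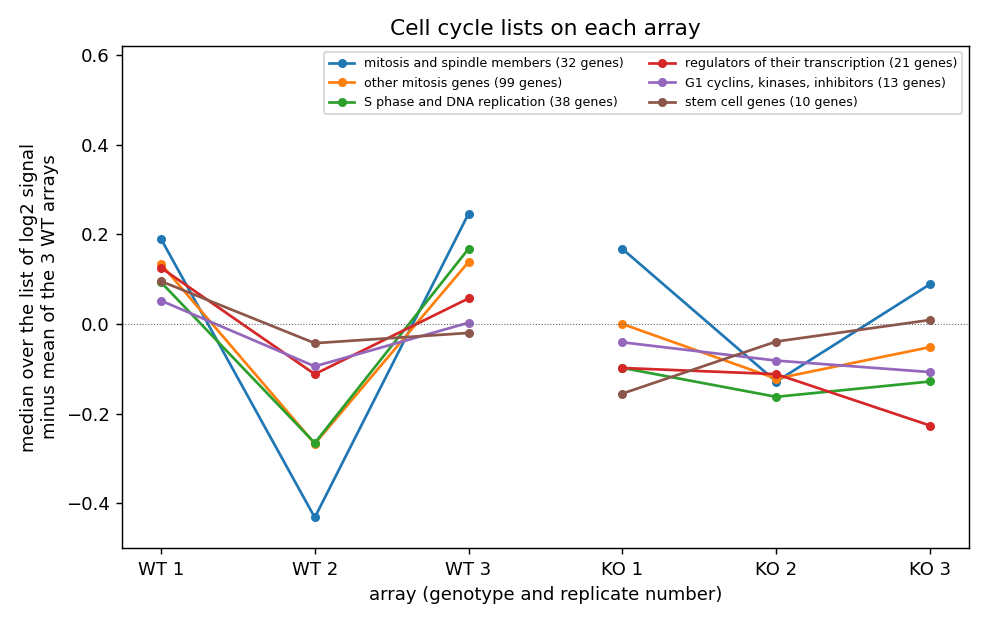
Median over the tested genes of each list of the level minus the mean of the 3 WT arrays (log2), for each array, with lines joining the arrays of a genotype. On WT replicate 2 the medians are -0.43 for the mitosis and spindle members, -0.27 for other mitosis genes, -0.27 for S phase and DNA replication and -0.043 for the stem cell genes.

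By the median of each list, markers of other cell types were higher on WT replicate 2 than the log2 mean of WT replicates 1 and 3. The members were lower. The percentages here are of the geometric mean of those 2 arrays, which is their mean on the log2 scale. The median marker stood at 245% for neutrophil and granulocyte progenitor genes and at 132% for monocyte and macrophage genes. It stood at 120% for B cell, 118% for megakaryocyte, 115% for erythroid and 111% for T and NK cell genes. In the neutrophil, megakaryocyte and T and NK cell lists every tested gene was above that mean, with smallest log2 steps of 0.38, 0.076 and 0.031. WT replicate 3 was higher still by the median of the B cell, monocyte and macrophage, and erythroid genes. Their median deviations from the mean of the 3 WT arrays were 0.37, 0.48 and 0.29 there. On WT replicate 2 they were 0.17, 0.26 and 0.14. For neutrophil and granulocyte progenitor, megakaryocyte, and T and NK cell genes WT replicate 2 was the highest WT array, at 0.86, 0.16 and 0.10. For the neutrophil genes WT replicate 3 was close to it, at 0.77. WT replicate 1 was negative in each of these lists, down to -1.63 for the neutrophil genes. That low array enters the geometric mean behind the 245%. The summed level of the 11 neutrophil and granulocyte progenitor genes, as signal relative to the 75th percentile, was 102 on WT replicate 1, 530 on WT replicate 2, 495 on WT replicate 3 and 337 to 443 in KO. All 11 were well above background, and WT replicate 2 had the highest sum of the 6 arrays. The summed level of the 7 tested erythroid genes of 9 was 15.96, 52.3 and 46.3 on the WT arrays and 28.04 to 31.4 in KO. WT replicate 2 again had the highest sum, and in both lists the sum on WT replicate 1 was far below those on the other WT arrays. The single erythroid genes went both ways. Their steps on WT replicate 2 ran from -0.49 to 1.17, and it was the lowest WT array in 2 of the 7. The median deviation of the erythroid genes on WT replicate 1 was only -0.036. On WT replicate 2 the summed level was 23.4 for megakaryocyte genes (18.3 to 25.7 on the other arrays), 9.29 for B cell genes (8.65 to 10.5), 19.3 for T and NK cell genes (16.98 to 20.6) and 10.3 for monocyte and macrophage genes (6.36 to 10.5). The 10 stem cell genes summed to 238 to 253 in WT and 235 to 254 in KO, with a median step of -0.064 on WT replicate 2. The part of these cell types in the members' levels was not tested.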

How the data were processed

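Total RNA of sorted cells was labelled with Cy3 and hybridised to 6 Agilent arrays. The scanner files hold intensity values (processed signal) that, per the file headers and the submitters' processing notes, came from Agilent Feature Extraction 10.7.3.1. The authors' deposited value table is a ratio: the same signal divided by 1 constant per array (304 to 368), linear and not centred, with array medians of 0.064 to 0.075. It served as an alternative.

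Spots flagged as outliers were dropped and spots averaged per probe. For each gene name the probe with the highest mean over the 6 arrays was used, if all arrays of WT or all arrays of KO called it well above background. Levels are log2 signal minus the 75th percentile of the array. Genotypes were compared as KO minus WT with limma 3.58.1 in R 4.3.3 (lmFit, eBayes, no covariate) with Benjamini-Hochberg adjustment at 0.05 over all 19609 genes or 27806 probes. Errors are SE of that fit unless SD is named. The code was tested on simulated data. The number of arrays limits the precision. Probe positions are those of the files (mm9), and 52 of 54 member probes matched a current accession with the same symbol.

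The members and the lists were chosen with earlier results of these data known. Every member is named. Array values are given for the tested member with the smallest p and that with the largest SD in each role, and for any with an unadjusted p under 0.05. The 4 genes of smallest p are named from each other list. Alternatives covered scaling, background correction, filter, probe choice, outlier spots, slide, array row, replicate number and each array left out.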

Additional observations from a re-analysis of the deposited data

How the results depend on the processing

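With 3 arrays a genotype only large differences can pass, and 1 array moved the direction of the members' median. Genes passing over the whole array numbered 4 in the fit reported, and 2 with no scaling, 1 with quantile normalization, 10 with normexp and quantile normalization together, 1 with the filter on all 6 arrays, 9 with the mean of all probes, and 0 with no filter, within slide 1, with the array row as a block or within array row 1. Probes passing numbered 9, and 5 with no scaling, 3 with the filter on all 6 arrays, 3 with the row as a block, and 0 with no filter, within slide 1 or within row 1. With each array left out in turn, 0 to 7 genes and 1 to 11 probes passed. Array row, and the direction counts of the other cell cycle lists under other scalings and without WT replicate 2, were added as alternatives after seeing the data. With the replicate number as a block 0 genes and 0 probes passed. The members' median of 0.033 could not change there, because each number holds 1 array of each genotype. Standard errors did change, for example from 0.25 to 0.12 for Ccna2 and from 0.13 to 0.15 for Racgap1. Same-numbered arrays correlated at -0.025, 0.15 and 0.071 in their deviations across all genes. WT replicate 3 correlated best with KO replicate 1 (0.18), so the numbers were not taken to pair the samples. In the members, replicate 2 was the lowest WT array in 31 of 32 and the lowest KO array in 25 of 32. The members' standard errors may thus hold a part shared by same-numbered arrays, which was not tested.

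No member passed in any of these fits. The members' median difference ran from -0.21 (without WT replicate 2) to 0.16 (without WT replicate 3), and members at an unadjusted p under 0.05 numbered 3 within row 1 and 0 to 4 with an array left out, including Ncapg within row 1 and Ttk without KO replicate 1, which entered only through KO arrays. The cause was not tested. Signs are followed here only for the tested members given array values, and other members that turned are not listed. With no scaling, signs turned for Birc5 (-0.085), Bub1 (-0.11), Cdca8 (-0.084), Kif4 (-0.11), Melk (-0.059) and Ube2c (-0.028), where the median of all genes moved by -0.15. Within row 1 the same genes measured -0.070, -0.22, -0.068, -0.20, -0.066 and -0.020. With the mean of all probes Cdca8 measured -0.031 and Cdk1 0.19 (this mean includes the dim second Cdk1 probe), with normexp and quantile normalization Kif4 -0.011, and within slide 1 Top2a 0.0040. With an array left out, Birc5 ran from -0.18 to 0.23, Bub1 from -0.25 to 0.24, Cdca8 from -0.20 to 0.20, Kif2c from -0.32 to 0.15, Kif4 from -0.25 to 0.20, Melk from -0.21 to 0.30, Nuf2 from -0.34 to 0.11, Top2a from -0.32 to 0.12 and Ube2c from -0.093 to 0.24. The members' median SD within genotype and the counts of members with WT replicate 2 lowest or with the larger SD in WT stayed within 1.5 times under the 8 alternatives run for them. The clearest drop came with no scaling between arrays. There WT replicate 2 was the lowest of all 6 arrays in 23 of 32 members, against 30 in the fit reported.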
